A study of Mus musculus with 4 samples.

Results

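Immune checkpoint ligands are surface or secreted proteins through which a cell restrains the T cells, natural killer cells and macrophages that touch it. A set of 10 such genes was followed here in the mouse liver cancer line Hepa1-6 after knockdown of Setdb1, a histone methyltransferase that writes methyl groups on lysine 9 of histone H3. The genes were Cd274, Pdcd1lg2, Cd276, Cd80, Pvr, Nectin2, Cd47, Lgals9, Ceacam1 and Tnfrsf14, picked by symbol with earlier results of these data known. The lower Cd274 level in the knockdown was one of the values behind that choice, so the differences of these 10 genes between the groups are given as descriptions, without p-values, and any call or count of calls among them rests on the values behind the choice. All 10 of 10 symbols were found among 54838 gene rows, and 9 of them had enough counts for the fit, which held 12821 genes. Cd80 did not.

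Bulk RNA-seq libraries of a knockdown and a control group were compared. The knockdown group was Hepa1-6 cells with an shRNA labelled shSet and the genotype Setdb1 knockdown (2 libraries), and the control group was Hepa1-6 cells with an shRNA labelled shNC and the genotype Setdb1 wild type (2 libraries). The series calls the lines subclones and does not say how many clones there were or whether each library had its own culture, so p-values cover library-to-library spread alone, perhaps only technical. Setdb1 RNA fell to 3.0 and 2.51 TPM in the knockdown libraries, against 14.6 and 17.5 TPM in the control libraries (log2 fold change -2.49, SE 0.182, edgeR adjusted p = 0.000149). TPM gives a transcript's share of the library's RNA, corrected for transcript length. The libraries held 19513445 to 19615277 counts, and CPM below is the count scaled to library size. No immune cells were part of the labelled samples. Summed over 8 T and NK cell markers, the level was 0.408 and 0.307 CPM in knockdown and 0.255 and 0.410 CPM in control libraries. Cd3e, Cd3d, Cd3g and Cd8a had 0 counts in all 4 libraries, and Trac had 7 and 6 counts in knockdown and 5 and 8 in control. Over 8 macrophage and dendritic cell markers the sum was 17.7 and 20.1 CPM in knockdown and 11.4 and 8.71 CPM in control libraries. Itgax and Clec4f had 0 counts. Cd68 and Csf1r made up most of that sum and were higher in both knockdown libraries, at 11.6 and 9.66 CPM in knockdown and 6.12 and 6.15 CPM in control libraries for Cd68 and at 5.15 and 9.25 CPM in knockdown and 3.78 and 1.28 CPM in control libraries for Csf1r. Lyz2 was lower, at 0.255 and 0.409 CPM in knockdown and 1.22 and 1.02 CPM in control libraries, and 0 of the 3 passed edgeR's adjusted threshold, while the adjusted p was 0.0561 for Cd68, 0.0811 for Csf1r and 0.0664 for Lyz2. Summed levels of B cell markers were at most 0.102 CPM in any library. Fibroblast markers summed to 4.95 and 5.26 CPM in knockdown and 1.58 and 1.95 CPM in control libraries. Of 5 such markers 2 were tested. Col1a1 rose to 3.06 and 4.04 CPM in knockdown, against 0.816 and 0.769 CPM in control (log2 fold change 2.17, edgeR adjusted p = 0.00652). Des did not pass, and Col1a2, Col3a1 and Pdgfrb had at most 1 count in any library. Endothelial markers summed to 2.14 and 1.07 CPM in knockdown and 0.51 and 0.41 CPM in control libraries. The part of these markers in the results was not tested. Of 9 hepatocyte and hepatoma genes 7 were tested, of which 3 rose (Alb, Fgb and Gpc3) and 1 fell (Hnf4a). Over all genes 5.96% passed the same edgeR threshold. Hnf4a had a log2 fold change of -0.60 (edgeR adjusted p = 0.0302), and Ttr and Apoa1 had too few counts to be tested. Albumin, Alb, was abundant, at 856 and 732 TPM in knockdown and 429 and 432 TPM in control libraries. In bulk RNA, fewer cells with a transcript and less of it per cell cannot be told apart.

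PD-L1, the product of Cd274, and PD-L2, the product of Pdcd1lg2, bind PD-1 on T cells and dampen their response. Many cell types make PD-L1 when interferon gamma signals through its receptor, the kinases JAK1 and JAK2 to the transcription factor IRF1. Promoter sequences are shown for the 3 ligand genes that stood furthest apart between the groups in relation to their spread, Cd274 and Pdcd1lg2, which were lower in the knockdown, and Lgals9, which was higher. Each runs 5′ to 3′ on the gene's strand from 250 bases before to 50 bases after the RefSeq start (GRCm38.p6). They are chr19:29367188-29367487 on the plus strand for Cd274, chr19:29410669-29410968 on the plus strand for Pdcd1lg2 and chr11:78984875-78985174 on the minus strand for Lgals9. Capitals mark matches to 2 motifs searched on both strands, a pair of IRF half-sites (GAAANNGAA) and the NF-kB consensus.
Cd274 promoter: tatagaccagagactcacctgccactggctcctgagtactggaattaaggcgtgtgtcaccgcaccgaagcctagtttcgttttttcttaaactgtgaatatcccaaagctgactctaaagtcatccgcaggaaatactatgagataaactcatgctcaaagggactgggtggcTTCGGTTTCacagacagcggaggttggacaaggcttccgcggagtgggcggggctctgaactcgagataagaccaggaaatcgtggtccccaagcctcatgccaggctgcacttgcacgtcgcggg
Pdcd1lg2 promoter: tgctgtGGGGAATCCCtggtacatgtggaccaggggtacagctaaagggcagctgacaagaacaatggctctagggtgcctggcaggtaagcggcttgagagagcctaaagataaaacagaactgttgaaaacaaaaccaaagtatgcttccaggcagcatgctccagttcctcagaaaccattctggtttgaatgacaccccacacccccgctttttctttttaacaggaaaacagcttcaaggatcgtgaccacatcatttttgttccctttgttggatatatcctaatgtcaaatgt
Lgals9 promoter: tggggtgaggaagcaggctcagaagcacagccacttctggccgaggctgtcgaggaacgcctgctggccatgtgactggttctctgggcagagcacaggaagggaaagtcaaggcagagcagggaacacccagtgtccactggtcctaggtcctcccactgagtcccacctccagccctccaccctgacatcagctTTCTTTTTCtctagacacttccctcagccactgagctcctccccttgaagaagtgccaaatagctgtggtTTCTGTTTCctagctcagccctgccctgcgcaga

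The Cd274 window held 1 IRF match, at bases 175 to 183 counted from its 5′ end, and 0 NF-kB matches. The Lgals9 window held 2 IRF matches. The Pdcd1lg2 window held none, but the NF-kB consensus matched there at bases 7 to 16 on both strands. The 2 motifs did not overlap in these windows. Of all 32817 promoters of this length, 8.55% held the IRF pair and 8.46% the NF-kB consensus. The STAT site TTCNNNGAA, present in 8.29% of all promoters, and the AP-1 site TGANTCA, present in 7.81%, were in none of the 3. Among the other members, Tnfrsf14 held an IRF match and Cd80 an AP-1 match, and 9 of 10 members had a window in the RefSeq table. GC content was 52.7% for Cd274 with 15 CpG, 46.0% for Pdcd1lg2 with 3 and 58.0% for Lgals9 with 4, against a median of 52.7% and 7 CpG over all promoters. These are matches of letters in sequence, and no binding was measured.

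The 10 genes spanned more than 3 orders of magnitude per unit of transcript length, as the plot of levels by library shows. In the knockdown the order of mean TPM was Lgals9 (190 ± 3.8, SD, n = 2), Pvr (59.6 ± 4.84), Nectin2 (57.1 ± 1.61), Cd47 (56.6 ± 2.39), Cd276 (43.6 ± 4.89), Pdcd1lg2 (18.1 ± 1.64), Cd274 (3.15 ± 0.375), Tnfrsf14 (1.05 ± 0.509), Ceacam1 (0.410 ± 0.184) and Cd80. In the control it was Lgals9 (121 ± 6.95), Pvr (59.8 ± 3.54), Cd47 (57.7 ± 2.27), Nectin2 (45.0 ± 6.93), Cd276 (39.0 ± 3.66), Pdcd1lg2 (32.7 ± 0.962), Cd274 (9.73 ± 0.0636), Tnfrsf14 (1.27 ± 1.16), Ceacam1 (0.240 ± 0.0424) and Cd80. The libraries of Pvr and Nectin2 and those of Nectin2 and Cd47 overlapped in the knockdown. Those of Pvr and Cd47 and those of Nectin2 and Cd276 overlapped in the control. All other neighbours in each order were separated in their libraries. Galectin-9 RNA made up 44.1% and 44.4% of the TPM summed over the 10 genes in the knockdown libraries and 32.3% and 33.6% in the control libraries, while Cd274 made up 0.801% and 0.663% in knockdown and 2.70% and 2.62% in control libraries.

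**Figure D1:**
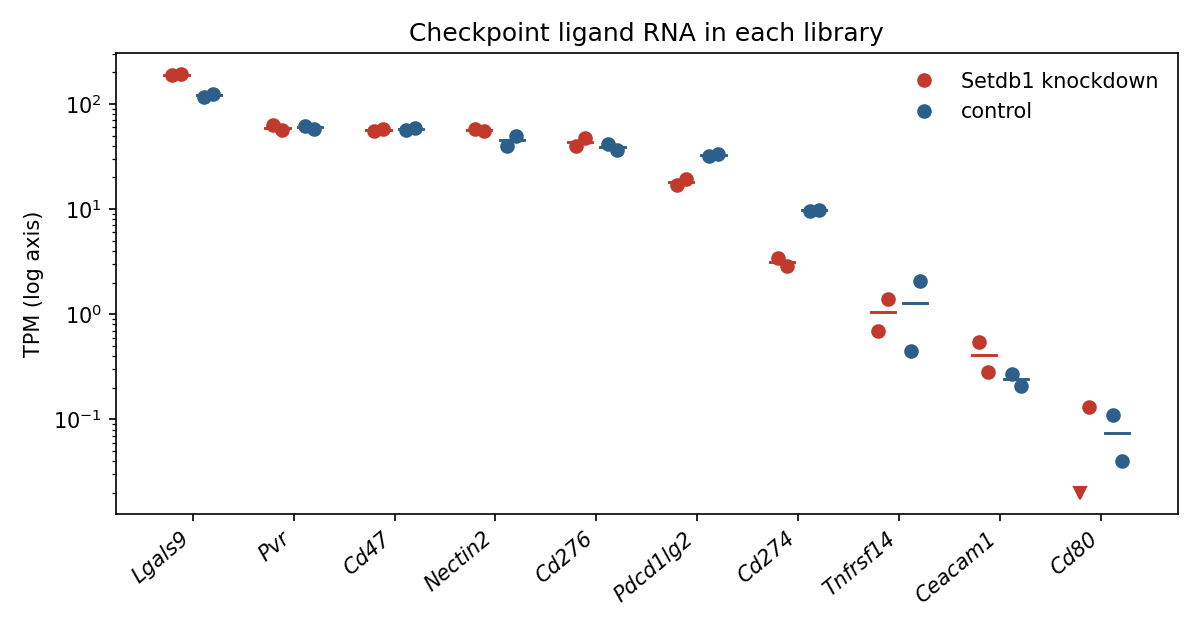
TPM on a log axis of the 10 checkpoint ligand genes in each library, ordered by control level, with Setdb1 knockdown (red) left of control (blue), 1 point per library and a bar at the mean of 2 libraries. The triangle marks the knockdown library in which Cd80 was listed at 0, and no bar is drawn for that group. Cd274, Pdcd1lg2, Lgals9, Nectin2 and Ceacam1 show no overlap between the groups, whereas Pvr, Cd47 and Cd276 overlap.

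Cd274 (ENSMUSG00000016496; chromosome 19, 29367455 to 29388095, plus strand, GRCm38) was lower in the knockdown, with 183 and 154 counts in knockdown libraries and 506 and 502 counts in control libraries. In TPM these were 3.41 and 2.88 in the knockdown and 9.69 and 9.78 in the control. Both knockdown libraries lay well below both controls, and the 2 controls were nearly equal. The log2 fold change was -1.57 (SE 0.183), which puts the knockdown at 33.7% of the control level, and it ranked 56 from the lowest among all 12821 tested genes and 12 from the lowest among the 9914 whose mean reached 5 CPM. The gene has 1 transcript in the files, and its estimated counts were whole numbers in all 4 libraries.

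Pdcd1lg2 (ENSMUSG00000016498; chromosome 19, 29410919 to 29471161, plus strand) begins 22824 bases after the end of Cd274. It had 374 and 424 counts in the knockdown and 689 and 710 counts in the control, which were 16.9 and 19.2 TPM in knockdown and 32.0 and 33.4 TPM in control libraries. Both knockdown libraries were lower, and the log2 fold change was -0.80 (SE 0.160), or 57.5% of control. Per unit of transcript length the cells held more PD-L2 than PD-L1 RNA in all 4 libraries. The ratio of Pdcd1lg2 to Cd274 TPM was 4.96 and 6.68 in the knockdown and 3.30 and 3.41 in the control, a ratio taken within each library that does not depend on scaling between libraries.

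Of the other B7 family members, Cd276, which encodes B7-H3 and was abundant, had 40.2 and 47.1 TPM in the knockdown and 41.6 and 36.4 TPM in the control. The groups overlapped (log2 fold change 0.22, SE 0.149, 95% interval -0.12 to 0.55), and its counts were fractional in all 4 libraries. Cd80, which encodes a ligand of CD28 and CTLA-4, was close to the limit of detection, with 0 and 3 counts in the knockdown and 5 and 2 in the control. The ratio of summed counts was 0.428 with an exact 95% counting interval of 0.0714 to 1.87, so a difference was not detectable at this depth. Such intervals cover counting error only.

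Pvr and Nectin2 encode the nectin-type ligands CD155 and CD112, which engage the activating receptor CD226 and the inhibitory receptor TIGIT on T and NK cells. Nectin2 had 58.2 and 55.9 TPM in the knockdown and 40.1 and 49.9 TPM in the control. Both knockdown libraries were higher, by a log2 fold change of 0.45 (SE 0.149), with the 2 controls further apart than the 2 knockdown libraries. Pvr had 63.1 and 56.2 TPM in knockdown and 62.4 and 57.3 TPM in control libraries, with overlapping groups and a log2 fold change of -0.03 (SE 0.139, 95% interval -0.34 to 0.28). The Pvr to Nectin2 ratio of TPM was 1.08 and 1.01 in the knockdown and 1.56 and 1.15 in the control.

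Cd47, whose product signals macrophages not to engulf the cell, had 54.9 and 58.3 TPM in the knockdown and 56.1 and 59.3 TPM in the control. Its groups overlapped, and the log2 fold change was 0.06 with a 95% interval of -0.25 to 0.37. Lgals9 (ENSMUSG00000001123; chromosome 11, 78962974 to 78984946, minus strand) encodes galectin-9, a lectin that binds TIM-3 among other glycoproteins. It had 188 and 193 TPM in the knockdown and 116 and 126 TPM in the control, with both knockdown libraries above both controls and a log2 fold change of 0.71 (SE 0.128), or 164% of control. On counts its 3777 and 3875 in knockdown and 2270 and 2436 in control libraries made it the most deeply read of the 10 genes. Ceacam1 and Tnfrsf14 were near the floor. Ceacam1, a cell adhesion molecule, had about 15 counts in each knockdown library (14.7 and 14.9) and 10 and 11 in the controls, a ratio of summed counts of 1.43 (0.790 to 2.62). Its estimated counts were fractional in 2 libraries, as RSEM gives where reads match several features. The Ceacam1 paralog Ceacam2 had 17 counts over the knockdown and 0 over the control libraries. Against a floor of 3 counts over the control group that is a ratio of 5.66, without allowance for counting error in the 17. Tnfrsf14, which encodes HVEM, the partner of BTLA, had 7 and 15 counts in the knockdown and 6 and 18 in the control (ratio 0.915, interval 0.489 to 1.70).

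**Figure D2:**
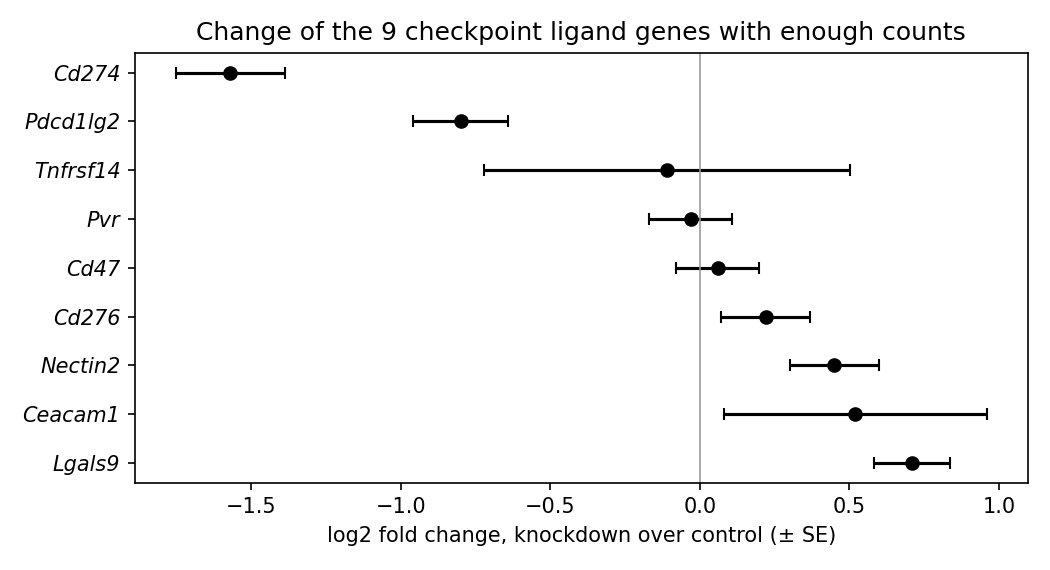
Log2 fold change, Setdb1 knockdown over control, of the 9 checkpoint ligand genes that passed the low-count filter, with bars for the SE from the fit over all genes (2 libraries per group). Cd274 at -1.57 and Pdcd1lg2 at -0.80 lie below 0, Lgals9 at 0.71 and Nectin2 at 0.45 above it, and Pvr and Cd47 lie near 0.

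As a description only, 3 of the 9 members were among the genes called in the edgeR quasi-likelihood fit of all genes (adjusted p under 0.05), Cd274 and Pdcd1lg2 lower and Lgals9 higher, beside 5.96% of all genes tested (1.76% lower and 4.2% higher). The members' libraries did not overlap in CPM for 5 of 9, 2 lower and 3 higher, beside 51.9% of all genes (26.5% lower and 25.4% higher). Since the contrast had been seen when the genes were picked, nothing is read from these shares. The median log2 fold change was 0.0632 over the 9 members and -0.00519 over all genes, with members on both sides of 0. With 1 library left out, the log2 fold change of Pdcd1lg2 lay between -0.90 (without knockdown 2) and -0.70 (without knockdown 1). That of Nectin2 lay between 0.30 (without control 1) and 0.62 (without control 2). The members called then were not always the same 3, as the closing section gives.

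The files also give each gene a mean transcript length weighted by the estimated abundance of its transcripts, which the choice of genes did not use. Pvr had a mean length of 2330 and 2264 bases in the knockdown and 2388 and 2467 bases in the control, so shorter transcripts took a larger estimated part of its RNA in the knockdown. Its protein-coding transcript has 2905 bases, and its other 4 annotated transcripts, all retained introns, are shorter. Nectin2 went the other way, with 2417 and 2391 bases in the knockdown and 2303 and 2372 bases in the control, between coding transcripts of 2735 and 1955 bases. These were 2 of 7 tested members with several transcripts, and the libraries of the groups were likewise separated in 34.3% of all such genes, so the count is near the background. With 2 libraries against 2 an exact permutation test cannot give a p below 0.333.

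Cd274 and Pdcd1lg2 are neighbours, and the other genes around them were not members. The region was set around Cd274, whose lower level was known when it was picked. Jak2 is also on a list written with earlier results of these data known. Jak2, which encodes the kinase that carries the interferon gamma signal and lies 54.4 kb before Cd274 on the same strand, fell in the knockdown. It had 30.4 and 29.7 TPM in knockdown and 53.0 and 65.4 TPM in control libraries (log2 fold change -0.91, SE 0.139, edgeR adjusted p = 0.00563). Plgrkt, which encodes a plasminogen receptor, starts 65 bases from Cd274 and is read from the opposite strand. Its levels overlapped between the groups, at 42.8 and 42.5 TPM in the knockdown and 48.8 and 43.9 TPM in the control (log2 fold change -0.04, SE 0.163, 95% interval -0.40 to 0.32). The IRF match in the Cd274 window lies 20 bases inside the annotated start of Plgrkt.

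Insl6, a relaxin-like gene between Jak2 and Plgrkt, had 4.03 and 3.42 CPM in the knockdown and 3.78 and 4.87 CPM in the control. These overlap, with a log2 fold change of -0.20 (SE 0.257) and a wide 95% interval of -0.78 to 0.38. Ric1, the next gene after Pdcd1lg2, was lower in both knockdown libraries, at 41.2 and 44.4 CPM against 56.9 and 64.2 CPM in controls, but did not pass (log2 fold change -0.49, edgeR adjusted p = 0.0846). Rln1 had 0 counts, and A930007I19Rik, which overlaps Pdcd1lg2 on the other strand, had 0.102 and 0.358 CPM in the knockdown and 0.459 and 0.205 CPM in the control. Within 1 Mb of Cd274, 20 genes other than the 2 ligands were tested, of which 1 fell and 3 rose, beside 1.76% lower and 4.2% higher over all genes, with 9 log2 fold changes below 0 and a median of 0.0775. The 3 that rose, named after their values were seen, were Ermp1, Mlana and Mbl2. Ermp1 had a log2 fold change of 0.79 (edgeR adjusted p = 0.0106). Mlana had 47 counts over the knockdown and 0 over the control libraries. Against a floor of 3 counts over the control group that is a ratio of 15.6, without allowance for counting error in the 47. Mbl2 had 22 counts against 1, which was in control 2 (ratio 22, exact 95% counting interval 3.55 to 906). Jak2, Cd274 and Pdcd1lg2 were thus lower, while Insl6 and Plgrkt, which lie between Jak2 and Cd274, overlapped between the groups, as the plot of the region shows. The wide interval of Insl6 does not exclude a lower level, and Ric1 was lower in both knockdown libraries without passing.

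**Figure D3:**
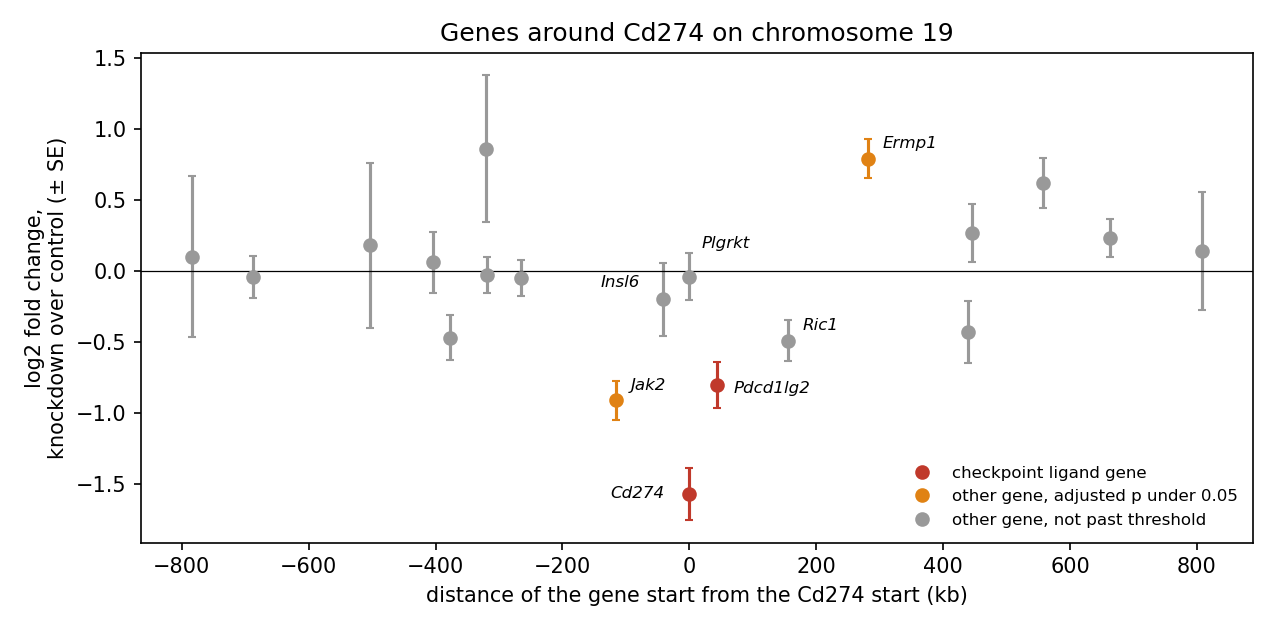
Log2 fold change, knockdown over control, with SE, of tested genes within 1 Mb of Cd274, against the distance of each gene's start from the Cd274 start in kb. Cd274, Pdcd1lg2 and Jak2 lie at -0.80 or lower, Plgrkt and Insl6 between Jak2 and Cd274 lie nearer 0, and Ermp1 lies at 0.79. Mlana and Mbl2, with at most 1 control count, are not drawn.

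The files also hold loci named by position. Cd274 had 1 such locus and Pdcd1lg2 had 2 within 100 kb, and all of these had 0 counts in all 4 libraries. Lgals9 had 2 and Cd47 had 2, also at 0. Pvr had 5, with 1 count in all, and Ceacam1 had 15, of which the most read had 4 counts over the 4 libraries. Among the direct neighbours of the other members, Bcam, a laminin receptor gene beside Nectin2, rose (log2 fold change 0.88, SE 0.15, edgeR adjusted p = 0.00910), at 266 and 207 CPM in the knockdown and 131 and 128 CPM in the control. Tomm40, on the other side of Nectin2 and named after its values were seen, was lower in both knockdown libraries and did not pass (log2 fold change -0.30, edgeR adjusted p = 0.207).

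Lists of 112 further genes of the checkpoint pathways, in 9 groups, placed the ligands in their setting. Those named below that did not pass were, outside the JAK-STAT list, picked after their values were seen. Of the 112 genes 77 could be tested, and 6 passed, 2 higher and 4 lower, which is 7.79% beside 5.96% of all genes. Among 17 genes of interferon receptors and JAK-STAT signalling, all tested, Jak2 was the 1 that fell, 0 rose and 16 did not pass (median log2 fold change 0.0973). The interferon gamma receptor genes Ifngr1 and Ifngr2 had log2 fold changes of 0.15 and 0.38, Jak1 of 0.03 and Tyk2 of -0.02. For Irf1 the levels were 55.9 and 38.9 CPM in the knockdown and 43.0 and 45.5 CPM in the control, and the groups overlapped.

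Of 22 other transcription regulators of PD-L1 described in various cells, 1 fell and 21 did not pass (median -0.12). The one that fell was Egfr, the epidermal growth factor receptor (log2 fold change -0.52, edgeR adjusted p = 0.0444), a call lost without knockdown 1, without knockdown 2 or without control 2 (edgeR adjusted p 0.0735, 0.166 and 0.0891) and under several other settings given in the closing section. Of 19 genes for the stability and traffic of PD-L1 protein, such as Cmtm6, which keeps PD-L1 at the cell surface (log2 fold change -0.05), 0 passed edgeR's adjusted threshold and 5 had an unadjusted p under 0.05, beside 21.3% of all genes. The list's median was 0.0395.

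Among 8 other B7 and butyrophilin-like genes 1 could be tested. This was Vtcn1, which encodes the inhibitory ligand B7-H4, and it rose to 2.40 and 2.10 CPM in the knockdown, against 0.102 and 0.512 CPM in the control (log2 fold change 2.86, SE 0.507, edgeR adjusted p = 0.0111). That is 88 counts over the knockdown and 12 over the control libraries, so the RNA stayed scarce in both groups. Its log2 fold change was 2.15 without control 1 and 4.37 without control 2. Cd86 had 0 counts in all 4 libraries. Of 3 tested nectin relatives Cadm1, an adhesion molecule that binds CRTAM on activated lymphocytes, fell (log2 fold change -0.57, edgeR adjusted p = 0.0352, but 0.149 without knockdown 2), while Nectin1 (log2 fold change 0.82) and Nectin3 (-0.45) did not pass. Nt5e, whose product CD73 makes adenosine, was the 1 immunosuppressive enzyme gene of 4 with enough counts and fell to 1.27 and 1.02 CPM in the knockdown, against 3.67 and 4.0 CPM in the control (log2 fold change -1.72, edgeR adjusted p = 0.0107).

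Of 10 ligands of other inhibitory receptors 7 were tested and 0 passed edgeR's adjusted threshold, while 2 had an unadjusted p under 0.05, beside the same 21.3%. Of 10 TNF family genes 4 were tested and 0 passed, again with 2 under that value. Thbs1, which encodes thrombospondin-1, a secreted partner of CD47, rose to 157 and 160 TPM in the knockdown, against 92.7 and 76.6 TPM in the control (log2 fold change 0.95, SE 0.149, edgeR adjusted p = 0.00640). It was 1 of 3 tested genes among 15 receptors and partners of the ligands. Another was Tigit, a receptor known from T and NK cells. Its level was 27.3 and 21.8 CPM in knockdown and 26.8 and 38.3 CPM in control (log2 fold change -0.39, edgeR adjusted p = 0.304). In the same libraries Cd3e, Cd3d, Cd3g and Cd8a had 0 counts. Trac, also a T cell gene, had 7 and 6 counts in knockdown and 5 and 8 in control libraries. Pdcd1, which encodes PD-1, had 0.102 and 0 CPM in the knockdown and 0 in both controls. How the count of calls over the 9 lists shifts with the libraries used is given in the closing section, beside the shift over all genes.

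**Figure D4:**
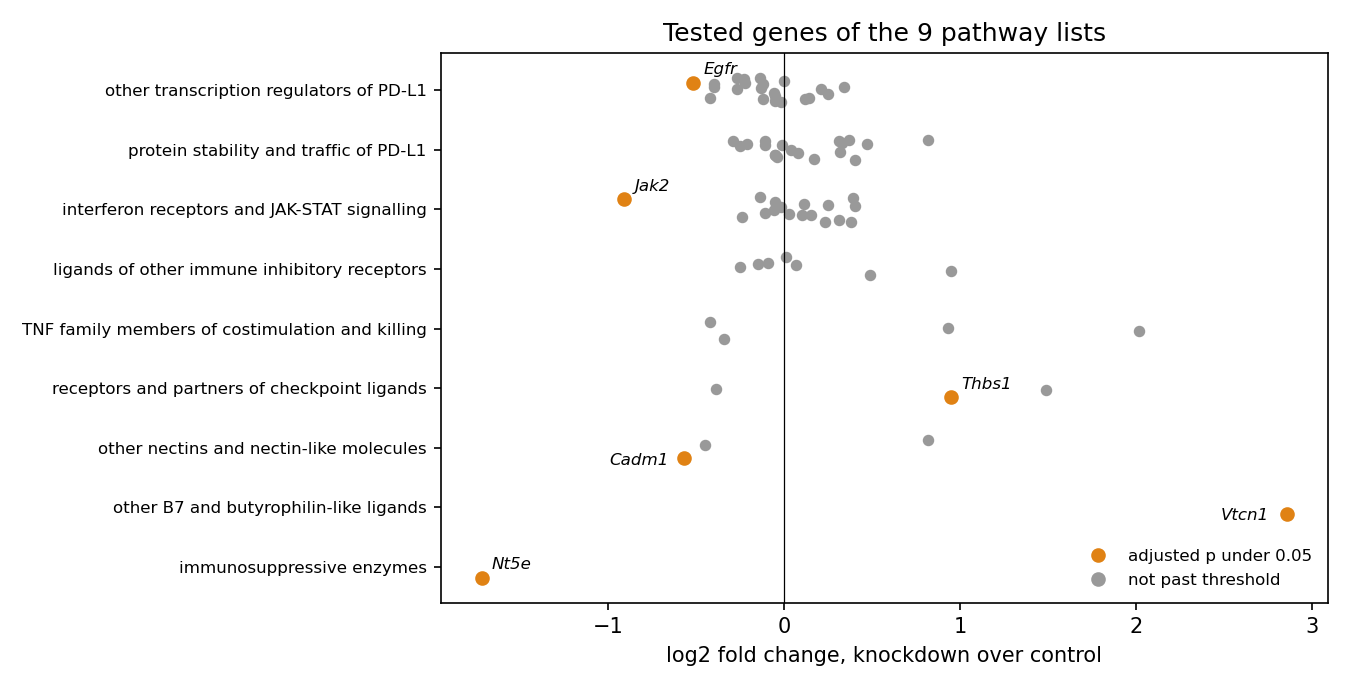
Log2 fold change, knockdown over control, of the 77 tested genes of the 9 pathway lists, 1 point per gene, spread vertically within a list for legibility. The 6 genes with an edgeR adjusted p under 0.05 are coloured and named, Jak2, Egfr, Cadm1 and Nt5e below 0 and Thbs1 and Vtcn1 above it.

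Among 9458 named genes whose mean reached 5 CPM, those with the pattern over the 4 libraries most like that of Cd274 were Gimd1, Fdps, Bicd2, Snx25 and Vash2. Likeness was measured by the Euclidean distance between log2 CPM values centred on each gene's mean, which was 0.266 for Gimd1 and 0.318 to 0.344 for the other 4. Their log2 fold changes ranged from -1.29 in Bicd2 to -1.63 in Vash2, and they lie on chromosomes 3, 13, 8 and 1, away from Cd274. With 4 libraries in 2 groups, likeness reflects mainly the size of the difference between the groups.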

How the data were processed

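Total RNA of 4 Hepa1-6 libraries was made into libraries with a directional NEBNext kit, per the labels' protocols. The submitters' processing notes list RSEM, STAR, FastQC and DESeq2, and GRCm38 with mm10 as builds, without roles. The strand setting and the annotation release were not given in the sources used here. The deposited expected counts are RSEM estimates that divide shared reads among features, and the deposited TPM values and transcript lengths come from the same files. Expected counts were rounded and tested by the quasi-likelihood method of edgeR 4.0.16 under R 4.3.3, after filterByExpr and TMM, with group as the only term, with library sizes summed over all rows and p-values adjusted over all genes by the Benjamini-Hochberg method at 0.05. SEs were taken from the F statistic. The fit was run on simulated counts with planted changes and the same dispersion for every gene. That simulation held no clone or culture structure, so it checks the code and not the spread of these libraries. Coordinates and transcript lengths are from GENCODE release M21, promoters from RefSeq. Pdcd1lg2 has 1645 bases in the files and 1649 in M21, so the releases differ, and an antisense gene M21 places inside Cd274 was not analysed here. The members and lists were chosen with earlier results of these data known. Named genes follow a rule: members, Setdb1, called list genes, the JAK-STAT list (1 gene of it is not reported here), genes near Cd274, called neighbours and the 5 genes most like Cd274. Other genes named were picked after their values were seen. Alternatives were DESeq2 1.42.0 and its size factors, other filters, the legacy fit, limma 3.58.1 on log2 TPM, each library left out and a replicate block.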

Additional observations from a re-analysis of the deposited data

How the results depend on the processing

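Cd274 kept a log2 fold change between -1.69 and -1.38 under all 13 alternatives: it was -1.38 with limma on log2(TPM + 1), which compresses low values, and from -1.69 (without knockdown 1) to -1.45 (without knockdown 2) with 1 library left out. Cd274, Pdcd1lg2 and Lgals9 were called with DESeq2, its size factors, a 1 CPM filter, the legacy fit and limma on log2(TPM + 1) or log2(TPM + 0.1), and with 1 library left out 2 to 4 members were called. Without a low-count filter edgeR called 0 genes in all, 0 members and 0 pathway genes, with 3379, 4 and 22 at an unadjusted p under 0.05, while DESeq2 on the filtered genes called 896 genes. The number of genes called was 764 as reported, 334 and 327 by limma with a pseudocount of 1 and 0.1, and 740 to 1677 with 1 library left out, the highest without control 1. The number of pathway genes called was 6 as reported, 2 with the pseudocount of 0.1, and 7 to 12 with 1 library left out, the highest again without control 1. The cause of these shifts was not tested. Among the named genes followed under the alternatives, Nt5e and Vtcn1 did not pass with limma and a pseudocount of 0.1 (adjusted p 0.0575 in each). Cadm1 did not with either pseudocount (0.0576 and 0.0578). Egfr did not with either pseudocount (0.0914 and 0.0927), the legacy fit (0.0516) or the replicate block (0.0796). Mbl2 did not with DESeq2 (adjusted p = 0.157). The calls of Col1a1, Alb, Fgb, Gpc3 and Hnf4a were not followed under the alternatives.

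The libraries share numbers across groups but no label pairs them, and the deviations of same-numbered libraries correlated at -0.183. With the replicate block 862 genes, 3 members and 5 pathway genes were called, and Cd274 had -1.57. With the numbers crossed, which was tried only once the data were known, 2340 genes, 4 members and 21 pathway genes were called.

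Depth limits Cd80, Ceacam1 and Tnfrsf14, with 3 to 30 counts per group. Their intervals, which cover counting error only, each include no change, so a difference was not resolved for these genes. With 2 libraries per group the log2 fold change of Tnfrsf14 ranged from -0.76 to 0.86 as 1 library was left out.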
